A study of Mus musculus with 10 samples.

Results

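The RNA of microglia was sequenced in libraries of 2 cohorts, and the comparison described here is between them: the 6 libraries of a second cohort of mice against the 4 libraries of a pilot cohort, with midbrain and striatum pooled. All 10 libraries of the series entered it. The cells of every library came from untreated C57BL/6 mice (C57BL/6 J in the study's methods) of 3 months that had been perfused, and they were isolated by papain digestion, a Percoll gradient and CD11b beads, so that no agent or age separated the cohorts in the labels. The pilot comprised 2 midbrain and 2 striatum libraries, which carry the word pilot in their titles. In the second cohort, 2 libraries were from the midbrain, 2 were from the striatum, and the remaining 2 bear the name of one region in the title and of the other in the file name. Those 2 libraries were used for the comparison of cohorts, which does not need the region, and a check with region as a covariate used the 8 libraries whose names agree.

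The headers of the files place the cohorts in separate analysis folders, otherwise with the same counting command. Whether the cohorts shared a day of dissociation, a library preparation or a sequencing run is not given in the sources used here, and the parts of the animals and of such steps in any difference cannot be told apart. The study took both regions from each mouse, but the labels do not tie libraries to mice. Libraries of one mouse therefore count as separate samples here, and the p-values over 10 libraries do not measure the spread between mice and allow no statement about mice. CD11b beads also retain any neutrophil or monocyte in the suspension, so a library is not made of microglia alone.

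Microglia are the resident macrophages of the brain parenchyma and stem from the yolk sac. They survey the tissue through the receptors Cx3cr1 and P2ry12, and they depend on signaling through Csf1r. When they are isolated from a digested brain, endothelial cells, pericytes, myelin debris, ependymal cells and leukocytes of the vessels and meninges can accompany them, and the extent depends on perfusion, digestion and the gradient. MARS-seq tags the 3′ end of polyadenylated transcripts, so the count of a gene rests on the last stretch of its transcripts.

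The libraries held 4936234 to 8463782 counts in the pilot and 575709 to 5194739 in the second cohort, with 19448 to 20052 genes and 13160 to 20005 genes detected, respectively. A level of 3 counts, taken as the floor, corresponded to 0.358 to 5.26 CPM (counts per 1000000 of the library, scaled with the TMM factors of edgeR). The label of microglia matched the markers in all 10 libraries, where the homeostatic microglia genes summed to 16362 to 24618 CPM in the pilot and 16056 to 33421 CPM in the second cohort. The shallowest library, second-cohort striatum 3, lay at −123.4 on the first principal component (39.1% of the variance), where the other 9 lay between −43.41 and 48.44. On the second component (18.5%), the pilot libraries lay between −40.09 and −23.24, and the second cohort lay between 4.085 and 52.9 except for striatum 3 at −22.54. The cohort accounted for 23.1% of the variance summed over genes, against 11.1% for equal cohorts.

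Vessel transcripts were lower in the second cohort, as were 4 clock genes and transcripts of red cells, ependyma and oligodendrocyte precursors. Immunoglobulin kappa, some neutrophil genes, several ribosomal proteins, replication-dependent histones and Cdkn1b, Notch2 and Insig1 were higher. In total 1597 of 13814 genes passed an adjusted p of 0.05 (voom with limma, Benjamini-Hochberg), which is 11.6% of the genes tested. Of these, 711 (5.15%) were higher and 886 (6.41%) were lower in the second cohort, and 606 changed at least 2-fold. The levels of the cohorts did not overlap for 1587 genes (11.5%), 611 with the second cohort above (4.42%) and 976 with it below (7.07%). When libraries were scaled to their size alone, the median over all genes moved to −0.10 on the log2 scale, and 26.7% of the calls were higher in place of 44.5%. Summing the counts of each file-name number, which leaves 2 samples against 3, gave 1499 of 15299 genes (9.8%), 711 higher (4.65%) and 788 lower (5.15%), and 1108 of them were among the 1597. Without the 2 libraries under 2000000 counts the fit gave 1226 of 14360 genes (8.54%), 559 higher (3.89%) and 667 lower (4.64%). Neither of these fits had a region term, and a sum weights each library by its depth. By file name, the midbrain libraries of the second cohort held 4473445 to 5194739 counts and its striatum libraries 575709 to 2820369. The pilot midbrain held 5478677 and 5651084 counts and the pilot striatum 4936234 and 8463782. Both libraries left out are striatum by file name. Cohort and region are thus partly mixed in both fits.

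**Figure D1:**
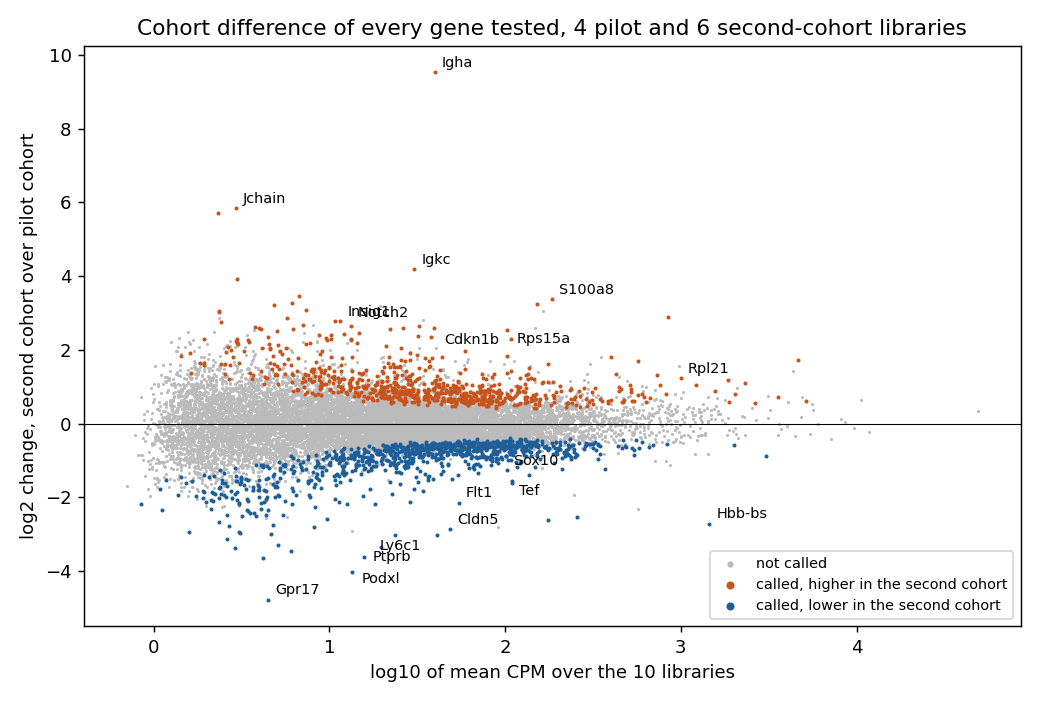
Log2 change of each of the 13814 genes tested (second cohort over pilot, vertical axis) against the log10 of its mean CPM over 10 libraries (horizontal axis). Orange points are the 711 genes called higher and blue points the 886 called lower, and gray points were not called. The fitted values of Igha and Jchain, which had 0 counts in the pilot, depend on the prior count and are no estimate of a fold. The same holds for Gpr17, at 0 in most second-cohort libraries.

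Endothelial transcripts had the largest share of calls among the cell type lists: 13 of 15 members (86.7%, against 6.41% of all genes tested) were lower in the second cohort, none was higher, and the median log2 change was −1.97, against 0.0031 over all genes tested. Together the 15 genes summed to 433 to 542 CPM in the pilot and 87.2 to 206 CPM in the second cohort. Claudin-5 (Cldn5, chr16:18776847-18778260), which seals the tight junctions of the blood-brain barrier, had 92.5, 109, 107 and 92.9 CPM in pilot midbrain 1, midbrain 2, striatum 1 and striatum 2, and from 5.26 to 25.6 with a median of 12.4 in the second cohort. Every pilot library thus exceeded every second-cohort library, with a log2 change of −2.86 ± 0.27 (SE, adjusted p = 2.7e-04). It remained called in all 25 alternatives that tested it, with log2 changes of −3.13 to −2.56.

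The same order of cohorts was seen for other vessel genes. Ly6c1, a surface protein of brain capillaries and of some leukocytes, had 66.7, 103, 81 and 86.7 CPM in the pilot libraries and from 4.72 to 33.9 with a median of 8.74 in the second cohort (log2 change −3.03 ± 0.38, adjusted p = 0.0011). The VEGF receptor Flt1 had 80.3, 89.5, 114 and 118 CPM against 13.1 to 53.1 with a median of 17.9 (log2 change −2.14 ± 0.30, adjusted p = 0.0017). Second-cohort midbrain 1 was the highest of its cohort for both genes and still lay below each pilot library. The efflux transporter Abcb1a (log2 change −2.17 ± 0.30), von Willebrand factor Vwf (−2.13 ± 0.31), Egfl7 (−1.91 ± 0.30) and the junction protein Esam (−1.41 ± 0.23) were lower as well, with adjusted p of 0.0017, 0.0023, 0.0031 and 0.0037.

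Several of the 10 most reduced protein-coding genes outside that list are also known from vessels. Podxl, a sialomucin of the endothelial surface, had 28.3, 30.2, 30.9 and 31.9 CPM in the pilot libraries, whereas it was at 0 in both second-cohort striatum libraries 1 and 3 and reached at most 4.91 CPM elsewhere (log2 change −4.02 ± 0.53, adjusted p = 0.0014). Ptprb, the phosphatase that restrains the Tie2 receptor, had 29.3, 33.4, 36.4 and 41.2 CPM against 1.28 to 4.93 with a median of 2.52 (log2 change −3.63 ± 0.30, adjusted p = 1.5e-04). The log2 changes of the matrix genes Ltbp4 and Spock2 were −3.34 ± 0.41 and −3.02 ± 0.33, and that of Id1, a target of BMP signaling, was −2.13 ± 0.26, with adjusted p of 0.0011, 5.4e-04 and 0.0010. Pericytes and smooth muscle followed in part, with Notch3 (log2 change −1.45 ± 0.17, adjusted p = 7.9e-04) and Acta2 (−1.05 ± 0.28, adjusted p = 0.030) lower among 10 genes and a median of −0.73. The pericyte genes of highest level, Vtn, Rgs5 and Pdgfrb, were not called, at −0.45, −0.47 and −0.60. Fewer cells of a type and less RNA per cell cannot be told apart in these bulk libraries, here or for the cell types that follow.

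Red cell transcripts were lower too, although the cohorts overlapped. The 4 hemoglobin genes tested summed with the rest of their list to 1482 to 6652 CPM in the pilot and 92.9 to 2326 CPM in the second cohort. Hba-a1 had 696, 396, 722 and 201 CPM in the pilot libraries and from 12.3 to 252 with a median of 53.9 in the second cohort (log2 change −2.53 ± 0.59, adjusted p = 0.018). Hba-a2 (log2 change −2.63 ± 0.62) and Hbb-bs (−2.71 ± 0.76) were called lower, and Hbb-bt (−1.94 ± 0.67, adjusted p = 0.073) was not. The 3 calls are 75.0% of the 4 genes tested, against 6.41% of all genes tested that were lower. Within the pilot, Hbb-bs ranged from 1004 CPM in striatum 2 to 4722 CPM in midbrain 1. Because these globin genes are near-identical copies, the division of reads among them is uncertain.

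Immunoglobulin transcripts differed in the opposite direction. The constant region of immunoglobulin A, Igha (chr12:113254830-113260236), was chosen after its values were seen. It had 0 counts in each of the 4 pilot libraries, and 382, 52 and 623 counts in the second-cohort libraries titled midbrain 1, 2 and 3 and 248, 124 and 12 in those titled striatum 1, 2 and 3. In CPM the second cohort ranged from 21 to 146 with a median of 57.4, which is at least 135-fold higher than the pilot with 3 counts per library as the floor. The joining chain of polymeric antibodies, Jchain, also had 0 counts in the pilot and 32, 14, 30, 11, 13 and 0 counts in the second cohort, in the same order, at least 9.99-fold higher. Both genes passed the filter on low counts through the second cohort alone, so their folds are a description, with no test. The kappa light chain constant region, Igkc, had 3.66, 6.54, 0.758 and 2.03 CPM in the pilot libraries and from 12.3 to 112 with a median of 36.9 in the second cohort (log2 change 4.19 ± 0.76, adjusted p = 0.0060). The 2 cohorts did not overlap for Igha or Igkc.

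Igha and Jchain were 2 of the 3 genes tested that had no count in the whole pilot, the third being the lincRNA Gm49192, at least 7.93-fold higher. A gene at 0 in all 6 libraries of the second cohort could not pass the filter, so the reverse case was not examined. The heavy chain of immunoglobulin M, Ighm, was not called and had 643, 619.8, 652 and 835 CPM in the pilot and from 428 to 732 with a median of 661 in the second cohort (log2 change −0.13 ± 0.17, adjusted p = 0.66). The B cell receptor component Cd79b was not called either, with a log2 change of 0.13 ± 0.21 (adjusted p = 0.70).

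Neutrophil genes were higher for 4 of 12 members tested (33.3%, against 5.15% of all genes tested), with a median log2 change of 1.02. S100a8 (chr3:90668978-90670035), a subunit of calprotectin, had 32.6, 26.2, 13.3 and 7.15 CPM in the pilot libraries. In the second cohort it had 1127, 90.1 and 247 CPM in the libraries titled midbrain 1, 2 and 3, and 45.4, 209 and 45.6 CPM in those titled striatum 1, 2 and 3. All 6 exceeded the pilot, and midbrain 1 stood far above the other 5 (log2 change 3.37 ± 0.84, adjusted p = 0.023). Its partner S100a9 (2.89 ± 0.87), the granulocyte resistin-like factor Retnlg (3.25 ± 0.98) and the collagenase Mmp8 (2.46 ± 0.74) passed more narrowly, with adjusted p of 0.047, 0.047 and 0.048, and their cohorts overlapped. The call of S100a8 was lost without any one of the 4 pilot libraries or second-cohort midbrain 3 (adjusted p of 0.051 to 0.061), and it was kept without second-cohort midbrain 1 (0.010). S100a9, Retnlg and Mmp8 lost theirs in 9, 8 and 7 of the 10 fits that left out 1 library. After removal of the trend with GC content described below S100a8 alone remained called (adjusted p = 0.030). The granule gene Ngp and the receptor Csf3r, which microglia also express, had log2 changes of −0.12 and 0.09 and were not called.

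All 12 monocyte genes had a positive log2 change, with a median of 1.58. Of the 2 that were called (16.7%, against 5.15% of all genes tested), Treml4 was 1 (1.54 ± 0.26, adjusted p = 0.0046). Their sums were 167 to 427 CPM in the pilot and 158 to 3173 CPM in the second cohort, the upper end being second-cohort midbrain 1. Plac8 showed how much that library contributed, with 1118 CPM there and 32.6 to 163 CPM in the other 5, against 3.34 to 41.4 CPM in the pilot (log2 change 3.06 ± 0.96, adjusted p = 0.055). Without second-cohort midbrain 1, the median of the monocyte list was 1.07. In the T and NK cell list none of 9 genes was called, and Gzmb had a log2 change of 1.99 ± 0.68 (adjusted p = 0.072). No border macrophage gene (12 tested), no dendritic cell gene (7 tested) and no mast cell or platelet gene (4 tested) was called, with medians of −0.06, −0.32 and −0.70.

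Among cells of the neural lineage, 3 genes of oligodendrocyte precursors were lower. Sox10, the transcription factor of the oligodendrocyte lineage, had 191, 149.8, 162 and 139.9 CPM in the pilot libraries and from 26.3 to 115 with a median of 62.8 in the second cohort, without overlap (log2 change −1.27 ± 0.25, adjusted p = 0.0079). Gpr17, a receptor of differentiating precursors, had 14, 15.4, 6.64 and 5.96 CPM in the pilot and was at 0 in 5 of the 6 second-cohort libraries. It met the filter on low counts through the pilot and 1 second-cohort library. Its fitted log2 change (−4.78 ± 0.71, adjusted p = 0.0026) depends on the prior count and is no estimate of a fold. Cspg4 was the third (−1.28 ± 0.26), of 9 members tested (33.3%, against 6.41% of all genes tested). Of the 12 oligodendrocyte genes, Cnp alone was called (−0.85 ± 0.26, adjusted p = 0.050), while the myelin gene Mbp had a log2 change of −0.30. That 1 call is 8.33% of the list, near the 6.41% of all genes tested that were lower.

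Ependymal genes were lower for 3 of 9 members (33.3%, against 6.41% of all genes tested) and had a negative log2 change in all 9, with a median of −1.42. The regulator of ciliogenesis Foxj1 had 95.6, 56.4, 62 and 32.8 CPM in the pilot against 8.95 to 30.5 with a median of 20.7 (log2 change −1.42 ± 0.33, adjusted p = 0.019), and Ccdc153 (−1.44 ± 0.28) and Rarres2 (−1.82 ± 0.29) did not overlap between cohorts either. Transthyretin (Ttr), the marker of the choroid plexus, varied within the pilot from 53.9 CPM in striatum 2 to 4028 CPM in midbrain 1 and was not called (−2.30 ± 1.07, adjusted p = 0.17). In neurons, Nrgn (−1.60 ± 0.30) and Stmn2 (−1.81 ± 0.54) were lower among 9 genes (22.2%). The astrocyte list had 1 call of 15 (6.67%, near the 5.15% of all genes tested), the gap junction gene Gja1, which was higher (1.88 ± 0.33, adjusted p = 0.0053), and its most abundant members Clu, Aldoc and S100b had log2 changes of −0.27, 0.72 and −0.54. No gene of the striatal neuron (3 tested), dopamine neuron (4) or fibroblast and meningeal (8) lists was called.

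**Figure D2:**
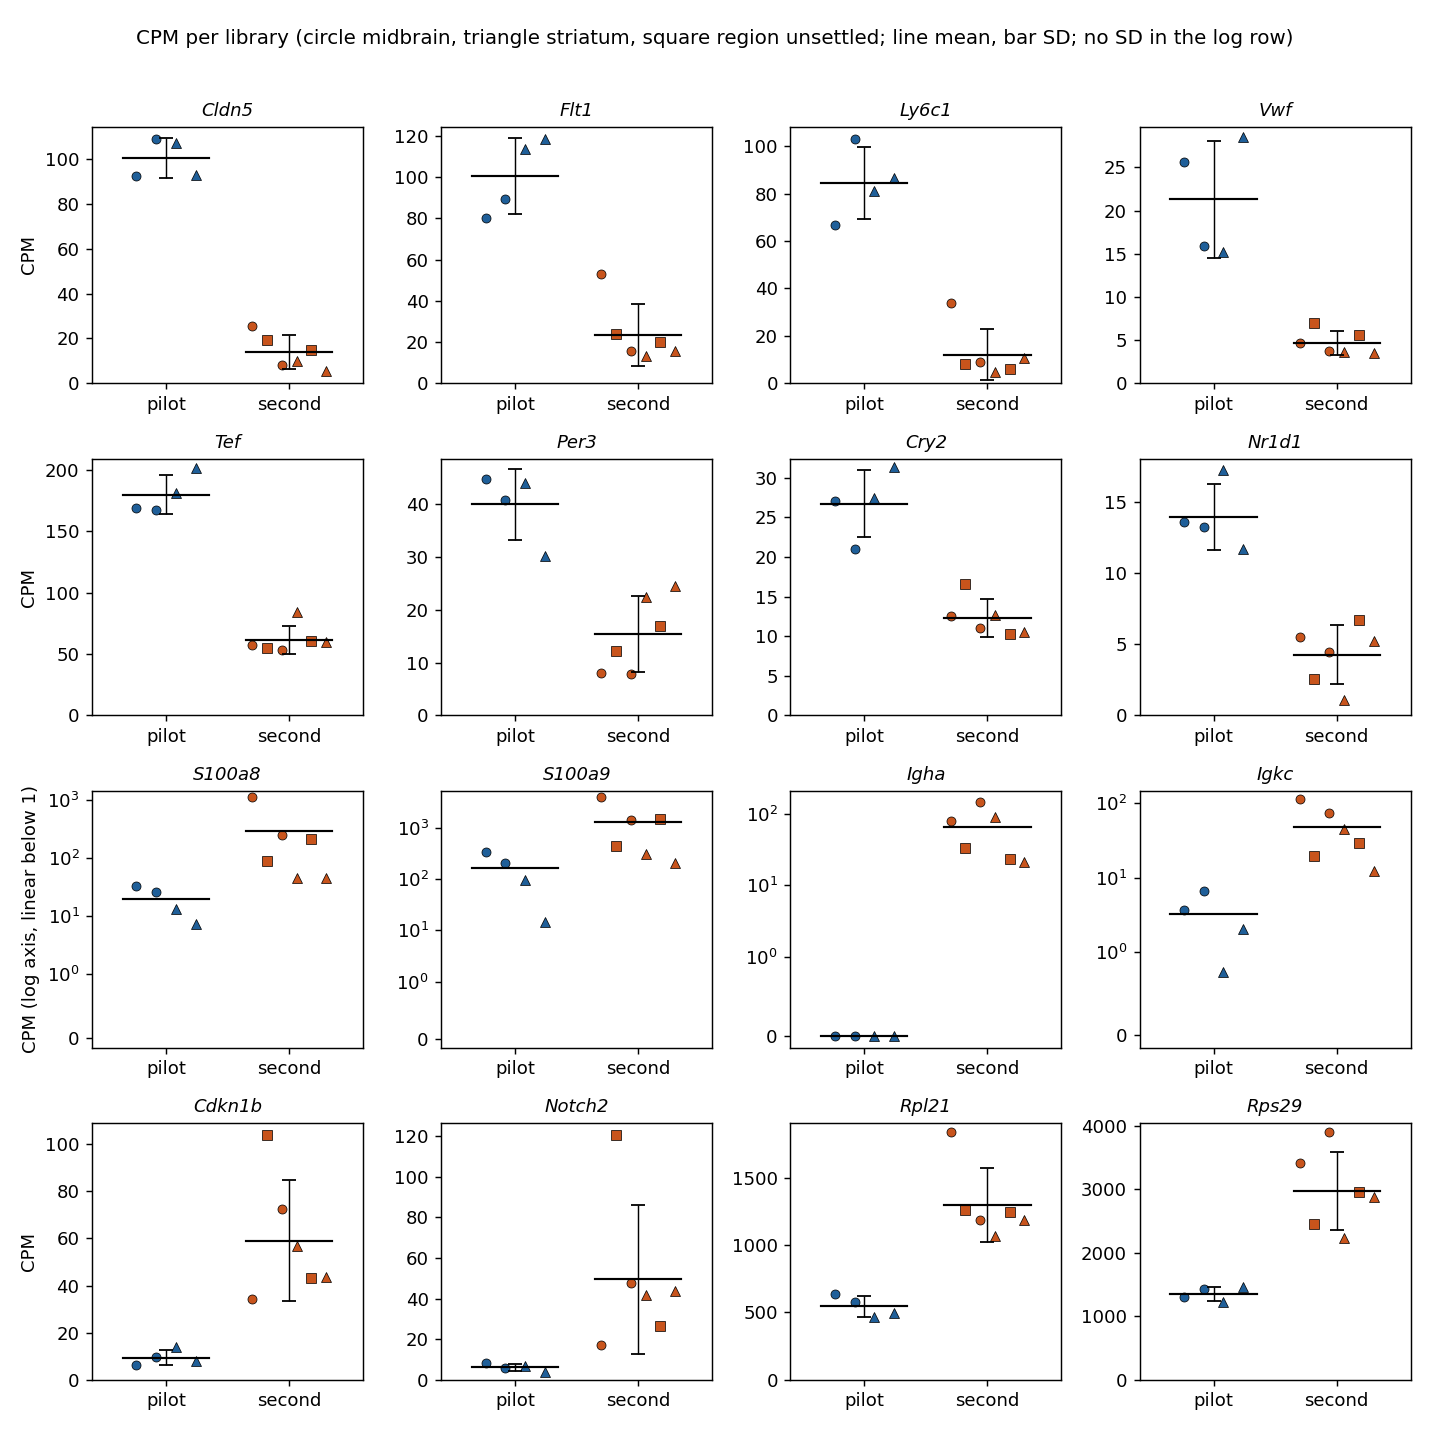
CPM of 16 genes in each library of the pilot (blue) and the second cohort (orange), with circles for the midbrain, triangles for the striatum and squares for the 2 libraries of unsettled region. Lines are cohort means and bars are SD (n = 4 and 6), and the third row has a log axis that is linear below 1 CPM and shows no SD. The cohorts overlapped for S100a9 and for no other gene of the plot.

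Some circadian genes were lower in the second cohort. The clock of a cell runs through Clock and Arntl, which activate Per and Cry genes through E-boxes, and through Nr1d1, which represses Arntl. The PAR bZIP factors Tef, Dbp and Hlf act on D-boxes as an output arm. Of 17 clock genes tested, 4 were lower in the second cohort (23.5%, against 6.41% of all genes tested) and none was higher, and these 4 were also the members without overlap of the cohorts. Tef had 169, 168, 181 and 202 CPM in pilot midbrain 1, midbrain 2, striatum 1 and striatum 2, and from 53.1 to 83.9 with a median of 58.4 in the second cohort. Every pilot library lay far above every second-cohort library, and the log2 change was −1.55 ± 0.15 (adjusted p = 2.7e-04). It was called in all 26 alternatives, at −1.67 to −1.42.

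The repressor Per3 had 44.9, 40.8, 44 and 30.3 CPM in the pilot and from 7.75 to 24.5 with a median of 14.6 in the second cohort (log2 change −1.64 ± 0.28, adjusted p = 0.0048). Cry2, its partner in repression, had 27.1, 21, 27.5 and 31.3 CPM against 10.3 to 16.6 with a median of 11.8 (−1.15 ± 0.19, adjusted p = 0.0046). The nuclear receptor Nr1d1 had 13.6, 13.3, 17.3 and 11.7 CPM against 1.09 to 6.68 with a median of 4.86 (−1.72 ± 0.35, adjusted p = 0.011). The remaining clock genes did not pass: Per1 had −0.65 ± 0.28 (adjusted p = 0.14) and, chosen after their values were seen, Per2 had −1.03 ± 0.34 (adjusted p = 0.067), Nr1d2 0.98 ± 0.33 (adjusted p = 0.068), Arntl 0.24 ± 0.23 and Dbp −0.11 ± 0.36. With the trend with GC content removed, 6 of 17 were lower.

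The promoters of Tef and Per3 are shown because both genes fell in every second-cohort library and because they hold letters of clock elements. The sequences are those of RefSeq for GRCm38.p6, from 250 bases before to 50 bases after a transcription start, and promoters were found for 15 of the 17 clock genes. The E-box CACGTG and the D-box pattern TTANNTAA were searched on both strands, and they do not overlap one another here. The D-box pattern allows any bases in its middle, which are GA in the Tef match and TG in the Per3 matches. Binding to any match was not tested. Capitals mark the E-box at bases 124 to 129 and the D-box at bases 77 to 84 of the first Tef promoter (chr15:81802423-81802722, plus strand), the E-box at bases 113 to 118 of the second (chr15:81811164-81811463, plus strand), and D-boxes at bases 46 to 53 and 93 to 100 of the Per3 promoter (chr4:151044616-151044915, minus strand).
Tef, first start: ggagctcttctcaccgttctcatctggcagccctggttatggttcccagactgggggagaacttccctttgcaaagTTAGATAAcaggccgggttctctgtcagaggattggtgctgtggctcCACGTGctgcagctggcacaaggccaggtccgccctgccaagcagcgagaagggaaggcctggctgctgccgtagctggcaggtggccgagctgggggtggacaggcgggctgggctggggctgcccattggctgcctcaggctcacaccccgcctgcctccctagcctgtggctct
Tef, second start: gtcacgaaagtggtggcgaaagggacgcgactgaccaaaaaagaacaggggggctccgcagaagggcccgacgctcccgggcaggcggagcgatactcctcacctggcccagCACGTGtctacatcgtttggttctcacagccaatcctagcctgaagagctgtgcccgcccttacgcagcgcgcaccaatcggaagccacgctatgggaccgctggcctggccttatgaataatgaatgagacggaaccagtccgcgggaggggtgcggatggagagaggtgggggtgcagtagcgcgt
Per3: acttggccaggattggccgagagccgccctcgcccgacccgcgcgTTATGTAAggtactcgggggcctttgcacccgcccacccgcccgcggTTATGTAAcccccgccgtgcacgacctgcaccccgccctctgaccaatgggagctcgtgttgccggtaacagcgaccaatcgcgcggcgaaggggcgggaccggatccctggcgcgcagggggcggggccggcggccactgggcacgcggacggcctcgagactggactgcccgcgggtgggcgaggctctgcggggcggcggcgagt
The E-box was found in 7.15% and the D-box in 6.0% of the 32851 promoters of this length. Among the clock genes with a promoter, 5 of 15 held an E-box and 2 of 15 a D-box. These are counts of genes with the motif at any start, not of promoters, so they are not on the same scale as the percentages. Among the 4 called genes, 1 held an E-box and 2 a D-box. Neither motif was in the windows of Cry2 or Nr1d1.

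Most genes of microglia themselves were not called. Of 16 homeostatic genes 1 was called, the fractalkine receptor Cx3cr1, which had 734, 905, 1188 and 1281 CPM in the pilot and from 1225 to 3709.5 with a median of 2344 in the second cohort, with overlap (log2 change 1.19 ± 0.28, adjusted p = 0.018). That 1 call is 6.25% of the list, near the 5.15% of all genes tested that were higher. Tmem119, Selplg and Sparc were not called, at −0.39, −0.34 and 0.17. Of 16 genes shared by all microglia or used for sorting, Ptprc (0.93 ± 0.20, adjusted p = 0.013) and Tyrobp (0.62 ± 0.17, adjusted p = 0.031) were higher, which is 12.5%, and C1qa and C1qb had log2 changes of 0.03 and 0.12.

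In the list of disease-associated microglia, genes that microglia induce near amyloid plaques, 5 of 22 were higher (22.7%, against 5.15% of all genes tested) and none lower, with a median of 0.54. The cathepsins Ctsb and Ctsl, the scavenger receptor Cd68, the class I light chain B2m and the cathepsin inhibitor Cst7 had log2 changes of 0.55 ± 0.16, 0.88 ± 0.21, 0.60 ± 0.15, 1.74 ± 0.46 and 1.53 ± 0.44. The value of B2m leaned on pilot striatum 2, which had 482 CPM against 2437 to 3022 in the other pilot libraries and 2982 to 8669 with a median of 6383 in the second cohort. Apoe, the most abundant member, was not called (−0.22 ± 0.50, adjusted p = 0.80).

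Lysosomal genes went both ways, with 4 higher and 3 lower of 25 and a median of −0.00060. Lamp2, a membrane protein of the lysosome, had 93.3, 101, 116 and 83.9 CPM in the pilot and from 129.8 to 296 with a median of 221 in the second cohort, without overlap (1.12 ± 0.21, adjusted p = 0.0063). Cathepsin H (Ctsh, 0.70 ± 0.16) and the proton pump subunits Atp6v0c (1.58 ± 0.40) and Atp6v0d1 (0.43 ± 0.12) were also higher. Progranulin (Grn, −0.58 ± 0.14), acid alpha-glucosidase (Gaa, −0.72 ± 0.15) and the channel Mcoln1 (−0.49 ± 0.15) were lower, but with the GC trend removed no lysosomal gene was lower, and Grn and Gaa had adjusted p of 0.37 and 0.10.

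Among genes of immune activation, the number of calls depended on how libraries were combined. Of 31 interferon-induced genes tested, 3 were higher: Trim30a, which had 9.15, 10.4, 7.4 and 7.63 CPM in the pilot and from 22.9 to 39.6 with a median of 28.2 in the second cohort (1.80 ± 0.21, adjusted p = 0.0010), Irf9 (0.84 ± 0.20, adjusted p = 0.021) and Xaf1 (0.85 ± 0.24, adjusted p = 0.036). The 3 calls are 9.68% of that list, against 5.15% of all genes tested, and its median was 0.34. No MHC class II gene of 10 was called, and H2-Aa and Cd74 had log2 changes of −0.82 ± 0.90 and −1.02 ± 0.78. The peptide transporter Tap2 was the only call among 12 MHC class I genes (−0.87 ± 0.14, adjusted p = 0.0035), which is 8.33%, near the 6.41% of all genes tested that were lower. Of 27 NF-kB cytokine and feedback genes, Il1a was higher (1.08 ± 0.32) and Icam1 lower (−0.74 ± 0.20), 3.7% each way and below the shares of all genes tested. With the counts summed per file-name number, 9 interferon-induced and 7 NF-kB genes were higher and none was lower, where 4.65% of all genes were higher. In the second cohort most of the summed counts are midbrain by file name, so cohort and region cannot be told apart there. The interferon-induced genes summed to 3723 and 2978 CPM in second-cohort midbrain 1 and 3, against 1636 and 1444.5 in striatum 1 and 3.

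Among the lists of dissociation and stress programs, the unfolded protein response had the largest share of calls. Of 23 immediate early genes Junb (−0.88 ± 0.23, adjusted p = 0.026) and Ier3 (−0.73 ± 0.22, adjusted p = 0.045) were lower (8.7%, near the 6.41% of all genes tested), and Fos and Jun had 0.10 ± 0.28 and −0.16 ± 0.35. None of 18 heat shock genes was called, and Hspa1b ranged from 54.4 to 1700 CPM within the pilot and from 191 to 3069 CPM within the second cohort. Of 16 genes of the unfolded protein response 4 were higher (25.0%, against 5.15% of all genes tested), the chaperone Hspa5 (0.88 ± 0.23), the secreted factors Creld2 (0.87 ± 0.16) and Manf (0.72 ± 0.17), and Herpud1 (0.62 ± 0.18). Of 17 hypoxia and glycolysis genes the glucose transporter Slc2a1 (−0.68 ± 0.18) and Pfkl (−0.59 ± 0.17) were lower (11.8%, against 6.41% of all genes tested). None of 14 glucocorticoid-induced and none of 17 cell cycle genes was called.

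Some ribosomal protein transcripts were higher. Of 78 cytoplasmic ribosomal protein genes 10 were higher (12.8%, against 5.15% of all genes tested) and 1 was lower, with a median of 0.31. Rpl21 had 639.9, 579.8, 464 and 498 CPM in the pilot and from 1069 to 1839 with a median of 1219 in the second cohort (1.23 ± 0.17, adjusted p = 0.0017). Rps29 had 1304, 1423, 1223 and 1456 CPM against 2233 to 3913 with a median of 2921 (1.11 ± 0.17, adjusted p = 0.0028), and the cohorts overlapped for neither. The most abundant members did not follow: Rplp1 had −0.02 ± 0.18, Rps12 0.14 ± 0.23 and Rps21 0.36 ± 0.19. Rps15a had 5.36 CPM in pilot striatum 2, 31.9 to 40.3 CPM in the rest of the pilot and 56.9 to 345 CPM in the second cohort (2.53 ± 0.63, adjusted p = 0.023), and Rpl23a was lower (−1.40 ± 0.35, adjusted p = 0.024). Ribosomal protein genes have many processed pseudogenes, which can share reads with them, so the level of a single member is uncertain.

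Of 78 nuclear genes of the respiratory chain 6 were higher (7.69%, near the 5.15% of all genes tested) and none lower (median 0.21), among them Cox7a2 (1.52 ± 0.41), the ATP synthase subunits Atp5f1 (0.57 ± 0.14) and Atp5c1 (0.56 ± 0.15) and Sdhd (0.55 ± 0.13). The mitochondrially encoded mt-Nd1, mt-Nd5 and mt-Cytb were higher as well, at 1.81 ± 0.44, 2.29 ± 0.60 and 1.70 ± 0.48, 3 of 7 tested (42.9%). With the 8 libraries of agreed region, or without the libraries under 2000000 counts, none of the 7 was called, and mt-Nd1 had adjusted p of 0.078 and 0.056.

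Replication-dependent histone genes were higher for 9 of 31 tested (29.0%, against 5.15% of all genes tested), none was lower, and 28 of 31 had a positive log2 change, with a median of 0.80. The linker histone Hist1h1e had 45.9, 38.4, 53.1 and 43.1 CPM in the pilot and from 59.6 to 106 with a median of 86 in the second cohort, without overlap (0.85 ± 0.17, adjusted p = 0.010). Hist1h1d (0.97 ± 0.20), Hist2h2ac (1.40 ± 0.31), Hist4h4 (1.36 ± 0.26) and Hist1h3e (1.33 ± 0.30) were higher, and the most abundant, Hist1h1c and Hist1h2bc, were not called (0.21 ± 0.15 and −0.14 ± 0.13). Most messages of this family lack a poly-A tail, and near-identical copies can share reads. The share of counts on genes that do not code for protein rose from 1.44% ± 0.0863 (SD, n = 4) to 1.75% ± 0.137 (SD, n = 6) without overlap (exact permutation test over 210 labelings, two-sided, p = 0.0048, the smallest it can give, and 0.033 adjusted over 7 library measures). Of the nuclear-retained transcripts, Malat1 (0.64 ± 0.28) and Neat1 (0.46 ± 0.24) were not called, while the lincRNAs Meg3 (−1.33 ± 0.35) and Miat (−2.32 ± 0.38), which neurons express, were lower. The latter 2 are 28.6% of the 7 tested, against 6.41% of all genes tested that were lower.

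**Figure D3:**
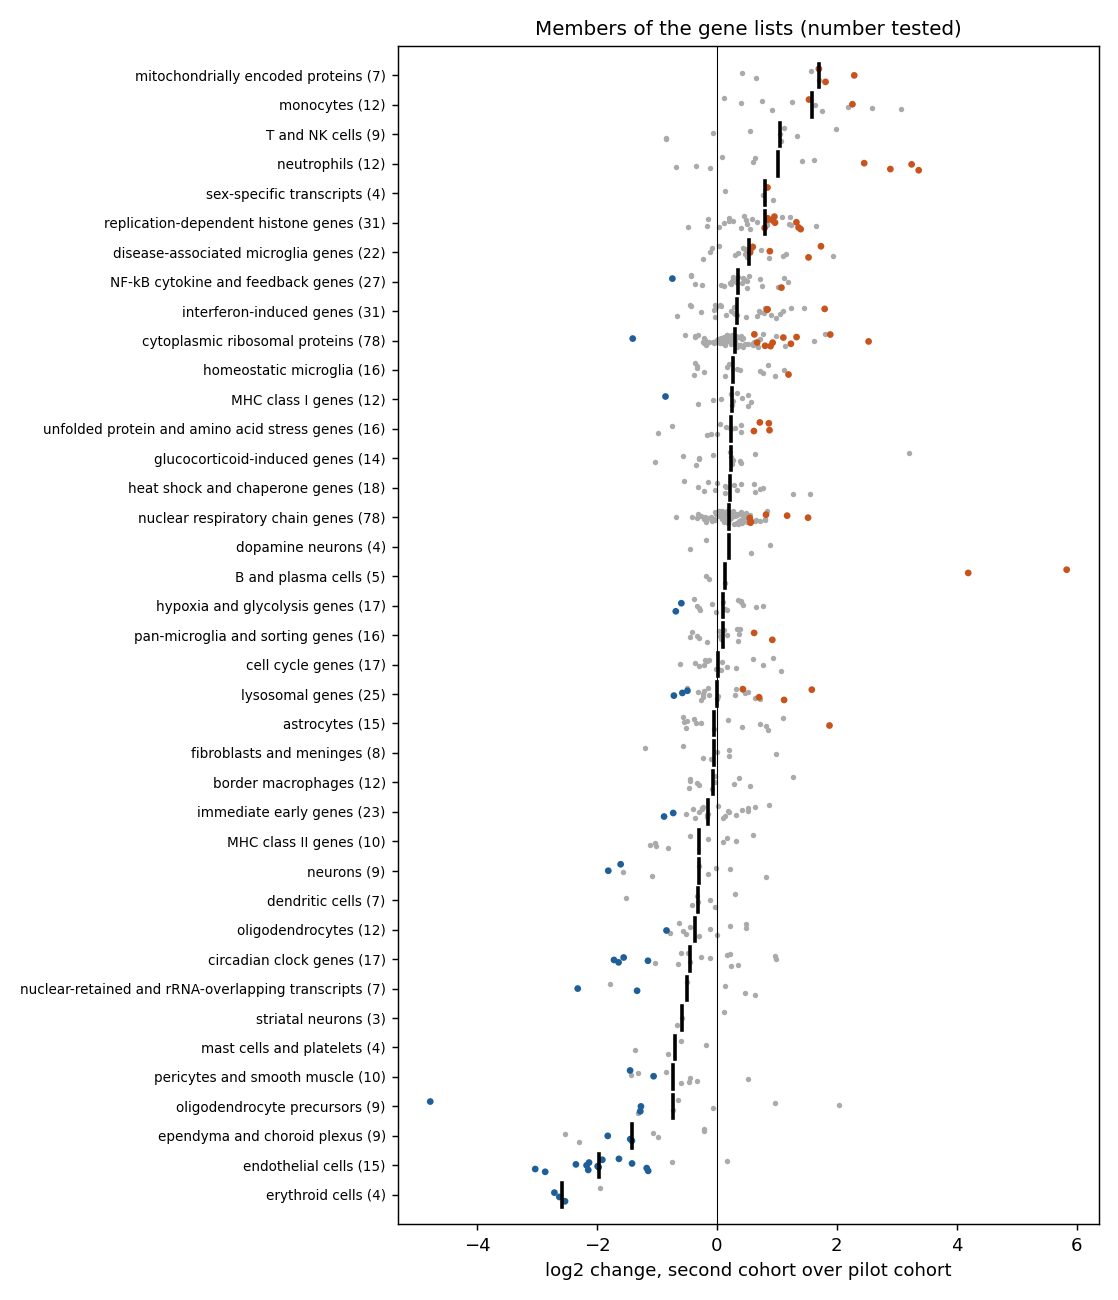
Log2 change of each member tested (second cohort over pilot, horizontal axis) for the gene lists with at least 3 members tested, whose number stands in parentheses. Colored points passed an adjusted p of 0.05 (orange higher, blue lower), gray points did not, and the black bar is the median. Endothelial cells had 13 of 15 members lower, and all 12 monocyte genes lay above 0.

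The 10 protein-coding genes with the largest increases, at a mean of at least 10 CPM and without overlap of the cohorts, did not belong to one cell type. S100a8 and Rps15a were among them. Cdkn1b, which encodes the cyclin-dependent kinase inhibitor p27, had 6.32, 9.55, 13.8 and 7.87 CPM in the pilot and from 34.1 to 104 with a median of 50.3 in the second cohort (2.60 ± 0.33, adjusted p = 0.0012). No second-cohort library came near the pilot range. The receptor Notch2 had 8.15, 5.66, 6.83 and 3.93 CPM against 17.3 to 121 with a median of 42.8 (2.65 ± 0.51, adjusted p = 0.0074). Insig1, which holds SREBP precursors in the endoplasmic reticulum when sterols are abundant, had 2.49, 4.6, 0.948 and 2.62 CPM against 9.39 to 24.9 with a median of 18 (2.77 ± 0.44, adjusted p = 0.0035).

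The others were Prpf39, a splicing factor (2.42 ± 0.44), Rybp, a component of Polycomb complexes (2.26 ± 0.28), Sephs2, which makes selenophosphate (2.12 ± 0.31), Ear2, an eosinophil-associated ribonuclease with close paralogs (2.19 ± 0.39), and Luzp2 (2.29 ± 0.63). Cdkn1b, Notch2 and Rybp were called in every alternative that tested them. Luzp2 had 0.358 CPM in pilot striatum 2 against 5.32 to 6.83 in the other pilot libraries, and it lost its call in 10 of 25 alternatives. Most of the 10 genes have a 3′ end of low GC content, in the lowest of the groups described below. These are Cdkn1b (31.2%), Insig1, Luzp2, Rybp, Sephs2, Notch2 and Prpf39 (37.2%). With the trend with GC content removed, Luzp2 was not called (adjusted p = 0.057), and the rest of the 10 still were.

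The cohorts are small enough that single libraries decided some calls. Of 75 named genes that were called, 42 were called in each fit that tested them with 1 library left out, and 33 lost the call at least once, none with a change of sign. Gpr17, among the 42, passed the filter in only 5 of these 10 fits. The losses were 28 and 17 without pilot midbrain 1 and 2, 27 and 13 without pilot striatum 1 and 2, and 16 without second-cohort midbrain 3, and they ranged from 4 to 10 without any other library. Besides the 4 neutrophil genes, 10 genes lost the call in at least 5 of the 10 fits: mt-Cytb in 9, Herpud1 in 8, Cox7a2, Xaf1 and mt-Nd5 in 7, Atp5c1, Ctsb and Hbb-bs in 6, and Luzp2 and Meg3 in 5.

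The cohorts also differed in the base composition of the transcripts they favored. Genes were divided into 5 groups by the GC content of the last 500 bases of their longest transcript in the GENCODE annotation, the part that MARS-seq reads. In the group of lowest GC (18.2 to 37.2%) 251 of 2844 genes were higher in the second cohort and 26 lower, with a median log2 change of 0.27. In the group of highest GC (51.6 to 81.6%) 38 of 2683 were higher and 454 lower, with a median of −0.34. Across 13808 genes, which are not independent replicates, Spearman's rho of the log2 change with GC content was −0.36. Within each library, the median deviation of the high-GC group minus that of the low-GC group was 0.52, 0.38, 0.31 and 0.26 log2 units in the pilot and 0.0020, −0.61, −0.23, −0.035, −0.15 and −0.49 in the second cohort. All 4 pilot libraries lay above all 6 of the second cohort (difference −0.62, exact permutation test, two-sided, p = 0.0048, the smallest of 210 labelings).

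With the trend removed within each library, 1098 genes were called (7.95%), 555 higher (4.02%) and 543 lower (3.93%), and 808 of the 1597 calls remained, all with the same sign. The endothelial list then had 12 of 15 members lower (median −1.87), the clock list 6 of 17, the histones 10 of 31 higher and the respiratory chain 14 of 78 higher. Tef (adjusted p = 5.6e-04), Cdkn1b (9.7e-04) and Rpl21 (0.0014) were still called. Junb (0.15), B2m (0.071) and S100a9 (0.056) were not.

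**Figure D4:**
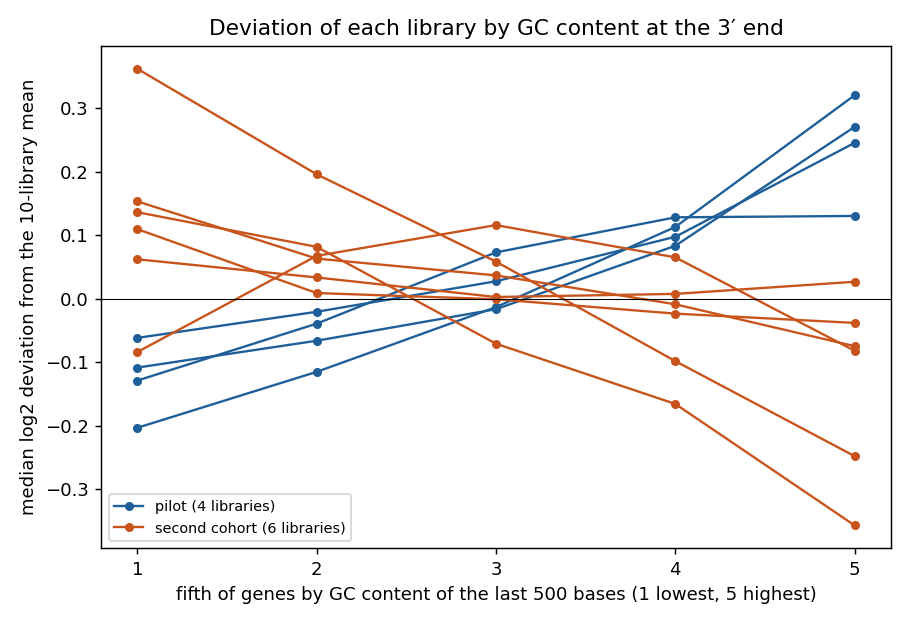
Median log2 deviation of genes from their 10-library mean (vertical axis) in 5 groups of increasing GC content of the last 500 bases (horizontal axis), 1 line per library. The 4 pilot lines (blue) rise toward high GC by 0.26 to 0.52, and the 6 second-cohort lines (orange) differ between their ends by 0.0020 to −0.61.

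The comparison was repeated with region as a covariate in the 8 libraries whose title and file name agree. It called 1480 of 14053 genes (10.5%), 662 higher (4.71%) and 818 lower (5.82%), and 1114 of the 1597 were among them. There the endothelial list had 11 of 15 members lower. Other lists had more calls than in the 10 libraries: 4 homeostatic and 3 pan-microglia genes, 8 disease-associated, 7 lysosomal, 17 ribosomal protein, 9 respiratory chain, 6 monocyte, 6 neutrophil and 2 T and NK cell genes were higher, and 5 precursor and 4 neuron genes were lower. Fewer were called higher among histones (7, against 9) and mitochondrially encoded genes (0, against 3). Of the 2 B and plasma cell genes called in 10 libraries, Jchain did not pass the filter on low counts here and was not tested. Fewer were called lower among lysosomal (2, against 3) and hypoxia and glycolysis genes (1, against 2). With the counts summed per file-name number, 4.65% of all genes tested were higher. There 8 disease-associated, 22 ribosomal protein, 7 monocyte, 6 neutrophil and 3 border macrophage genes were higher. So were 2 glucocorticoid-induced and 5 mitochondrially encoded genes, but only 1 gene of the unfolded protein response. Without the libraries under 2000000 counts, 16 ribosomal protein, 14 respiratory chain and 6 monocyte genes were higher, where 3.89% of all genes tested were. Both settings lean toward the midbrain in the second cohort by file name, and neither had a region term. Within the midbrain (2 against 2 libraries) 420 genes were called (2.99%), 203 higher (1.44%) and 217 lower (1.54%). Within the striatum (2 against 2) 2 genes were called (0.0142%), 1 in each direction (0.00712%), with 1937 (13.8%) at an unadjusted p under 0.05. The cohort difference was not shown to depend on the region: the interaction of cohort and region was called for 0 of 14053 genes by limma, with 771 (5.49%) at an unadjusted p under 0.05, and DESeq2 called 2.

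Cldn5 changed by −2.80 in the midbrain and −3.51 in the striatum, and Tef by −1.66 and −1.30. For Cdkn1b the values were 2.61 and 2.43. S100a8 had 4.12 and 2.31, and their difference did not pass the interaction test (adjusted p = 0.86). Igha was at 0 in both pilot libraries of each region and had 81.5 and 146 CPM in the 2 second-cohort midbrain libraries and 90.1 and 21.0 CPM in the 2 striatum libraries.

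**Figure D5:**
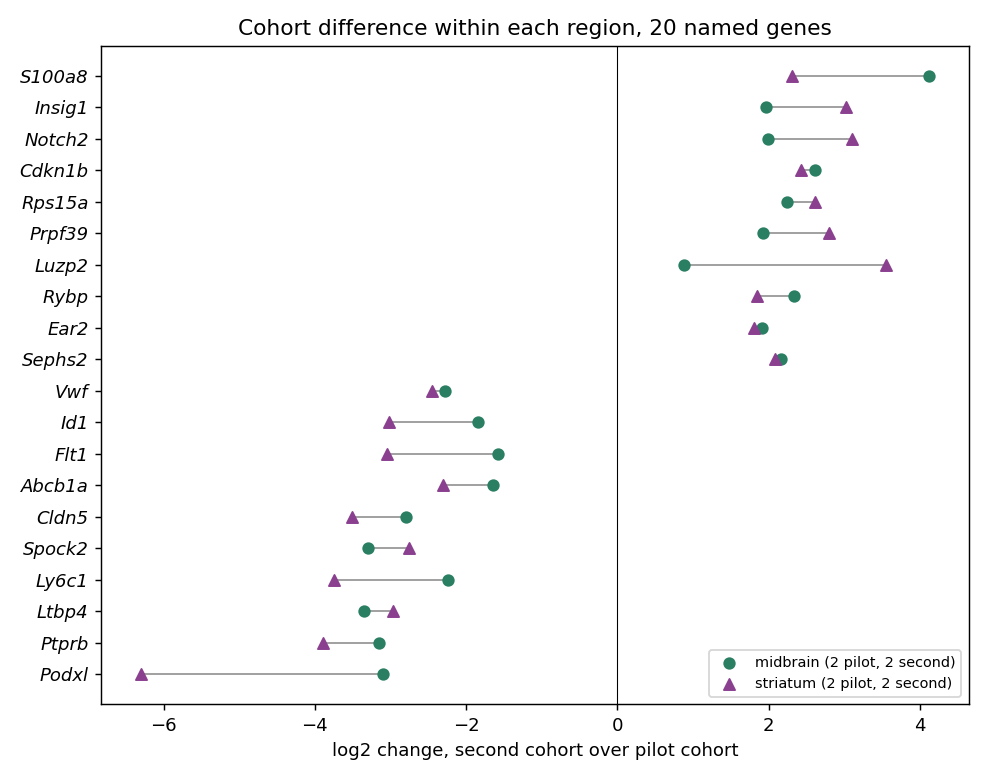
Log2 change (second cohort over pilot, horizontal axis) within the midbrain (circles) and within the striatum (triangles), each from 2 pilot and 2 second-cohort libraries, for the 10 most increased and 10 most decreased named genes. The 20 genes were chosen for cohorts that do not overlap, which fixes their side of 0 in both regions, and the striatal value of Podxl, with 0 counts in both second-cohort libraries, depends on the prior count.

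Sex was checked with single genes. Xist, the transcript of the inactive X chromosome, was at 0 in 9 of the 10 libraries and at 0.363 CPM in second-cohort striatum 1, and the Y-linked Eif2s3y was detected in all, with 22.3, 27.9, 30.3 and 26.3 CPM in the pilot and from 34.8 to 87.7 with a median of 51.2 in the second cohort (0.83 ± 0.19, adjusted p = 0.017). Ddx3y, Kdm5d and Uty were not called.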

How the data were processed

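Reads were aligned by the authors with STAR 2.5.3a (build GRCm38) and counted per gene without regard to strand with featureCounts 1.6.0 on Gencode M17, per the file headers and the submitters' processing notes. The deposited values are raw counts of 53715 genes, not normalized, and a use of molecular identifiers is not given in the sources used here. Symbols were found for 53620 genes in the reference annotation. No pair of libraries held identical counts. Depth ranged from 575709 to 8463782 counts, a 14.7-fold span, so low genes are imprecise in the shallow libraries. Counting intervals would cover counting error only.

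Cohort and region came from the titles and file names. Counts were scaled by TMM (edgeR 4.0.16; the study's methods name edgeR without a scaling) and, as in the study, tested by voom with limma 3.58.1 (lmFit, eBayes; R 4.3.3), after leaving out genes with under 6 counts in more than 50% of the libraries. The fit over 10 libraries had the cohort alone, the fit over 8 had region as well, and the fits within a region and of the interaction used the same 8. Calls required a Benjamini-Hochberg adjusted p under 0.05, and log2 changes are second cohort over pilot. Nothing in the labels says that libraries came from separate mice, so p-values measure the spread between libraries. Against a cohort at 0, a fold is the mean CPM over the mean floor of that cohort, at 3 counts per library. Library measures were compared with a two-sided exact permutation test over 210 labelings.

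The members and the 40 gene lists were chosen with earlier results of these data known. Named genes are the 10 most increased and 10 most decreased protein-coding calls with at least 10 CPM and no overlap, the 3 members of highest CPM in each list (all in lists of 6 or fewer), and up to 4 more called members of lists with at least 3 calls. Igha, Gm49192, Jchain and the called members of lists with fewer than 3 calls were named after their values were seen, as were Cst7, Atp6v0d1, Mcoln1 and Rpl23a. Tested on simulated counts for the 10-library comparison, the fit called 81 of 91 genes changed 4-fold, 36 of 97 changed 2-fold and 6 of 13229 unchanged in one draw of 13417 genes, and 68, 30 and 6 (of 91, 97 and 13232) in another of 13420. These draws held no GC trend and no libraries that share a mouse. With a GC trend simulated, the fit called 84 of 95, 36 of 92 and 82 of 13223 such genes. After removal of the simulated trend it called 81, 34 and 7 of them. Other settings tried were DESeq2 1.42.0, the quasi-likelihood test of edgeR, scaling to library size, other filters, thinning to 575709 counts, an adjusted p of 0.01, quality weights, region placed by title or by file name, replicate blocks, summed counts and leaving out each library. Leaving out libraries under 2000000 counts and removing the trend with GC content were chosen after seeing the data. GC content is that of the last 500 bases of the longest transcript in GENCODE vM21. Midbrain against striatum was not analysed here, and some list members, with 1 list as a whole, are not reported here.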

Additional observations from a re-analysis of the deposited data

Results flagged for a closer look

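Single libraries stood apart from the others of their cohort in 15 of 132 groups of 4 or 6 libraries, by the gap to the nearest library relative to the range of the group (Dixon's ratio above its 95% critical value). Chance alone gives about 1 in 20 such groups, and many of the groups share libraries.

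In second-cohort midbrain 1, S100a8 had 1127 CPM with the nearest library at 247, and the monocyte genes summed to 3173 CPM with the nearest at 1192. The same library was the highest of its cohort for 3 endothelial genes, Ly6c1 at 33.9 CPM (nearest 10.5), Abcb1a at 18.6 CPM (nearest 6.90) and Flt1 at 53.1 CPM (nearest 23.6). The library titled midbrain 2 in the second cohort was highest for Notch2, at 120.8 CPM (nearest 47.5), and for Sephs2, at 55.6 CPM (nearest 30.8). The B and plasma cell genes summed to 502 CPM in the library titled striatum 2 (nearest 727).

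In the pilot, striatum 2 stood apart for 5 sums. The lysosomal genes summed to 23741 CPM there (nearest 17446), and the B and plasma cell genes to 899 CPM (nearest 704). Its sums were the lowest for oligodendrocytes, at 7069 CPM (nearest 11432), dopamine neurons, at 16.7 CPM (nearest 41.2), and fibroblasts and meninges, at 1606 CPM (nearest 2165). Pilot striatum 1 had the lowest sum of ribosomal protein genes, 54314 CPM (nearest 68183), and pilot midbrain 1 the highest sum of ependymal and choroid plexus genes, 4664 CPM (nearest 811).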

How the results depend on the processing

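For the 10-library comparison (711 genes higher, 886 lower), edgeR gave 626 and 711. DESeq2 gave 1148 higher, scaling to library size 1382 lower, region placed by file name 1143 higher, and removal of the GC trend 543 lower. Thinned counts gave 173 and 227, an adjusted p of 0.01 gave 119 and 194, and quality weights 1409 and 1518. With the replicate block by file name 1380 and 1538 genes were called, and by title 1405 and 1547. The correlations of deviations between libraries of one number were 0.081 or lower, and the consensus correlations were −0.215 and −0.223. The block fits had no region term, and each number joins a midbrain and a striatum library. These values and the block fits therefore cannot show whether the numbers pair the libraries. Leaving out 1 library gave 257 to 836 higher and 401 to 971 lower. The counts were 257 and 401 without pilot midbrain 1, 363 and 510 without pilot midbrain 2, 319 and 495 without pilot striatum 1, and 402 and 584 without second-cohort midbrain 3.

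For the 8 libraries (662 and 818), DESeq2 gave 1062 higher, thinned counts 268 and 240, an adjusted p of 0.01 70 and 84, and leaving out 1 library 56 to 910 and 78 to 1111, both lowest without pilot midbrain 1 and highest without pilot striatum 2. The higher shares of counts on the 50 most abundant genes (by 3.15 percentage points) and on genes that do not code for protein (by 0.309) had an adjusted p of 0.10 there, the smallest possible with 70 labelings being 0.029 before adjustment.

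In the midbrain (203 and 217), edgeR called 100 and 103, DESeq2 383 higher, no filter 369 higher, scaling to library size 480 lower, and all 10 libraries 114 and 144 by title or 318 and 382 by file name. Leaving out 1 library gave 0 to 645 and 0 to 372, the lower ends without pilot midbrain 1. In the striatum (1 and 1), edgeR called 2 and 11, DESeq2 87 and 107, a minimum of 10 counts 0 and 0, no filter 9 and 10, and all 10 libraries 8 and 34 by title or 52 and 42 by file name. Leaving out 1 library gave 0 to 28 and 0 to 16, the upper ends without pilot striatum 1. A lone library of a group was then assumed to vary like the others. The interaction had 2 calls higher with DESeq2, and 0 to 5 and 0 to 2 when 1 library was left out. The causes were not tested.

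Of 75 named genes that were called, 8 lost the call with edgeR, 0 with DESeq2 and 10 without the libraries under 2000000 counts. With the GC trend removed, 18 lost it. Thinned counts, which put all libraries at the depth of the smallest, tested only 64 of the 75. Of these 64, 22 lost the call and 42 kept it. None of the called genes changed sign in these settings. Of the genes not called, Pf4 changed sign when counts were summed per file-name number (log2 change 0.68, adjusted p = 0.037, against −0.30). That setting had no region term and partly mixed cohort with region. The Igkc call was lost under 1 of 25 alternatives, thinned counts, with an adjusted p of 0.074. Depth limits low genes and changes near 2-fold, of which 36 and 30 of 97 were called in simulated counts.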
